A study of Mus musculus with 135 samples.

Results

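Microglia, the resident macrophages of the brain, express a set of genes in the healthy tissue that is used to tell them from neurons, other glia and blood-borne macrophages. The 9 genes of this set described here were Csf1r, Cx3cr1, P2ry12, Tmem119, Trem2, Tyrobp, Aif1, Sall1 and Siglech. They were chosen by symbol and not by a rule on their values, although earlier results of these data were known. They were 9 of the 55416 genes in each count table, with 1 row per gene. RNA was sequenced from the cerebral cortex and the hippocampus of adult male Townes mice, a strain in which human globin genes replace those of the mouse. SS mice carry the sickle allele and are a model of sickle cell disease, and AA mice carry the normal adult allele. RSD (repeated social defeat) is a stress in which an aggressive male mouse was placed each day in a cage of males, and minocycline is an antibiotic that was given in the drinking water from the day before RSD. The AA and SS groups without a suffix had neither.

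The cortex comparisons held 8 SS mice, 6 with RSD, 14 with RSD and minocycline and 4 with minocycline alone (SS + RSD, SS + RSD + minocycline and SS + minocycline). They also held 12 AA mice, 2 with RSD (AA + RSD) and 18 with both (AA + RSD + minocycline). In the hippocampus there were 7 SS and 11 AA mice, and the remaining groups were as large as in the cortex. The AA mouse given minocycline alone, 1 in each tissue, entered no comparison. Libraries held 16295042 to 107713193 reads in genes in the cortex and 12869149 to 68731008 in the hippocampus. Levels are in CPM, a gene's count divided by the library's reads in genes and scaled to the same total in every library. Log2 differences are from fits that scale libraries further (TMM), so they can differ from ratios of CPM in size and in sign. In pieces of whole tissue, fewer microglia and less RNA per microglial cell cannot be told apart.

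The proteins of these genes work at the cell surface, in the cell and in the nucleus. CSF1R is the receptor for CSF1 and IL-34 on which microglia depend for survival, and CX3CR1 is the receptor for the neuronal chemokine CX3CL1. P2RY12 senses purine nucleotides released by cells and guides microglial processes, and SIGLECH is a sialic acid-binding lectin. TREM2 binds lipids and lipoproteins and signals through its adaptor TYROBP (DAP12), which carries the activating motif that TREM2 lacks. AIF1, also called IBA1, binds calcium and actin and is the antigen of the antibody most used to stain microglia. SALL1 is a transcription factor that sets microglial identity, although it is also found in other neural cells, and TMEM119 is a membrane protein used to separate microglia from other macrophages.

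In the GRCm39 genome, Cx3cr1 is at chr9:119877749-119898945 on the minus strand and P2ry12 at chr3:59123682-59170429 on the minus strand. Siglech (chr7:55417926-55429195) and Tyrobp (chr7:30113170-30117010) are both on the plus strand of chromosome 7. Trem2 (chr17:48653429-48661175, plus strand) and Aif1 (chr17:35387384-35395053, minus strand) share chromosome 17. Tmem119 is at chr5:113931781-113938577 and Sall1 at chr8:89753863-89770823, both on the minus strand. In GENCODE vM39, 6 of the 9 overlap a gene on the opposite strand, as P2ry12 does with Med12l and Csf1r with Hmgxb3, and Csf1r also holds Mir6983 on its own strand. The strand setting of the counts is not given in the sources used here, so reads of those partners cannot be told apart from reads of the 6 genes. Tmem119, Tyrobp and Siglech overlap no other gene.

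PU.1, the product of Spi1, is a factor that myeloid cells require and that binds purine-rich sites with a GGAA core. The RefSeq promoter table of GRCm38.p6 held 6 of the 9 genes, and the 150 bases before the annotated start are shown for the receptor Trem2 and for Aif1, which hold the longer site GAGGAA, and for Cx3cr1, which holds only the core. Capitals mark GGAA or its complement TTCC.
Trem2 (chr17:48346251-48346400, plus strand): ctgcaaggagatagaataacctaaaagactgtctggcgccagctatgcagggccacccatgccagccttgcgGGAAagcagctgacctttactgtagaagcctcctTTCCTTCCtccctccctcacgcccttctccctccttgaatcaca
Aif1 (chr17:35176053-35176202, minus strand): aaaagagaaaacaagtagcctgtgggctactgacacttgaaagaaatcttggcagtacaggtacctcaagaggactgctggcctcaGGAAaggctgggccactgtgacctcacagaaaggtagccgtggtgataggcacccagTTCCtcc
Cx3cr1 (chr9:120068297-120068446, minus strand): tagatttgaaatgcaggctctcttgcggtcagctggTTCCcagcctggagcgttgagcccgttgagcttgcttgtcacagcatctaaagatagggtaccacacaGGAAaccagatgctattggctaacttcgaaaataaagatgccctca
GAGGAA was searched on both strands and contains GGAA. It was found, in both as its complement TTCCTC, 40 bases before the Trem2 start and 7 bases before the Aif1 start. Of 32851 promoter windows of this length, 14.5% held GAGGAA and 80.8% held GGAA, which stood in at least 1 window of each of the 6 genes.

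In AA and SS mice without RSD or minocycline, the levels per kilobase of the canonical transcript fell into the same order in both tissues. In the cortex (20 mice), Tyrobp stood at 18.5 ± 6.44 (SD) CPM per kilobase and Csf1r at 17.1 ± 2.28, followed by Cx3cr1 at 13.5 ± 1.82, P2ry12 at 12.2 ± 2.37, Trem2 at 10.5 ± 2.52 and Tmem119 at 9.70 ± 1.42. Siglech followed at 5.16 ± 0.874, Sall1 at 4.32 ± 0.430 and Aif1 at 1.35 ± 0.444. In the hippocampus (18 mice), Tyrobp stood at 19.9 ± 7.29, Csf1r at 19.4 ± 2.96 and Aif1 at 1.34 ± 0.459. The ranges of neighbours in this order overlapped from Tyrobp down to Tmem119 and between Siglech and Sall1 in both tissues. Those of Tmem119 and Siglech overlapped in the cortex only, and Aif1 was below Sall1 in each tissue without overlap. This order depends on the transcript length used, which was 3425 bases for Aif1 and 5592 bases for Sall1. Levels by the length of other transcripts were not computed, so the place of Aif1 holds for this length only.

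The largest differences among the 9 genes went with the numbering of the libraries in the labels. The labels number each mouse's libraries, and the share of reads outside annotated genes changed between numbers 37 and 39. Libraries numbered 1 to 37 are called the first label block and those numbered 39 to 69 the second. This boundary was set after the data were seen, and the labels do not say what the number stands for. In the cortex, the share had a median of 9.75% (4.27 to 13.9) in the first block and 5.13% (3.68 to 9.84) in the second. In the hippocampus it had a median of 9.32% (6.49 to 24.01) and 4.71% (3.98 to 9.48). Groups were unequally spread over the blocks. All 6 SS + RSD and both AA + RSD mice were in the second block, whereas 6 of 8 SS mice (5 of 7 in the hippocampus) and 10 of 14 SS + RSD + minocycline mice were in the first.

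Tyrobp is shown as an example. In the cortex its level ranged from 5.77 to 17.2 CPM in the first block (median 8.38, 37 libraries) and from 10.8 to 28.2 in the second (median 15.4, 28 libraries). In the hippocampus it ranged from 6.31 to 13.1 (median 9.24, 36 libraries) and from 11.8 to 25.0 (median 16.6, 27 libraries). Most libraries of the second block were above those of the first, and the ranges overlapped at the edges. With the study group as a term, Tyrobp was higher in the second block by 1.01 ± 0.09 (SE) on the log2 scale in the cortex (edgeR quasi-likelihood test, adjusted p = 1.1e-15) and by 1.06 ± 0.07 in the hippocampus (adjusted p = 3.2e-19).

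**Figure D1:**
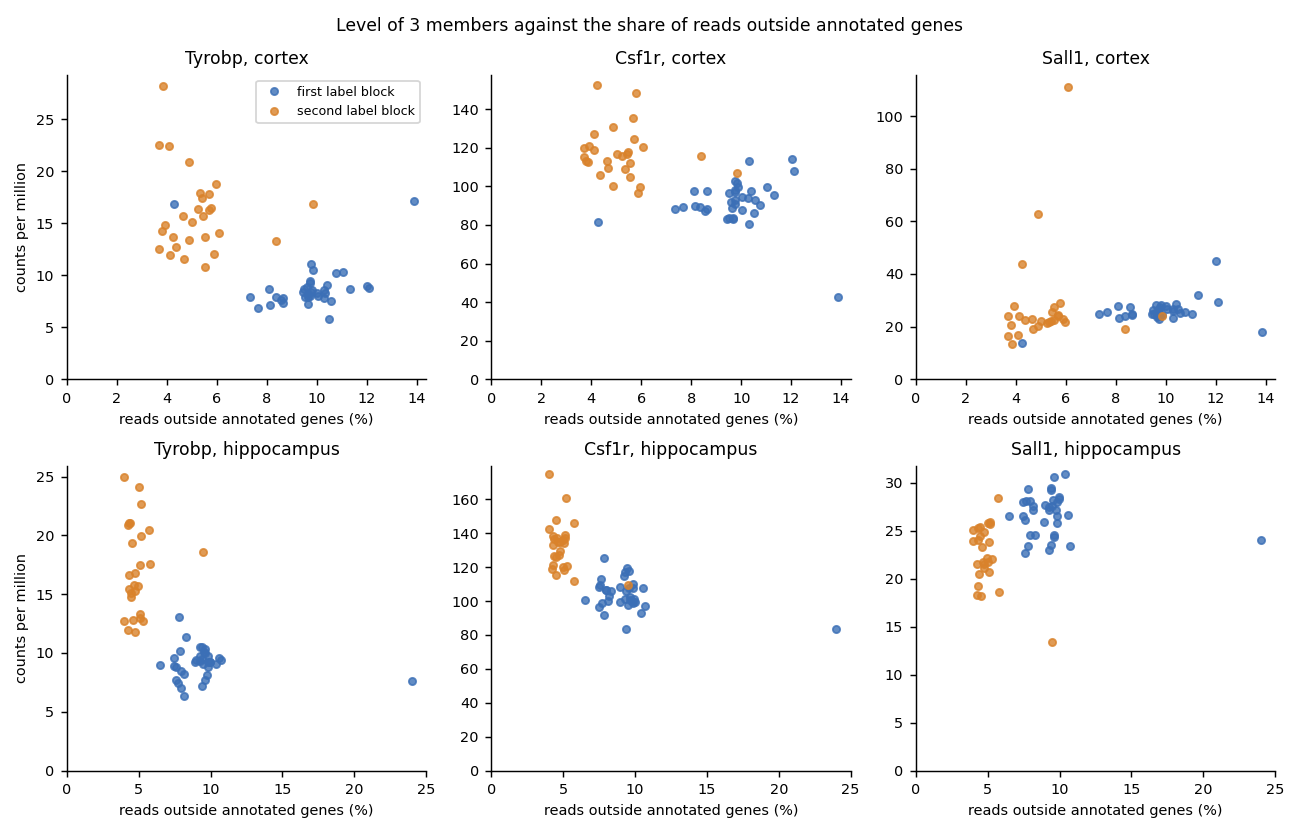
Level in CPM (vertical axes) of Tyrobp, Csf1r and Sall1 in each library against the percentage of reads outside annotated genes (horizontal axes), in the cortex (top) and hippocampus (bottom), coloured by label block. Libraries of the second block have lower percentages (median 5.13% in the cortex and 4.71% in the hippocampus) and higher Tyrobp and Csf1r than most of those of the first block.

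Of the 9 genes, 8 rose from the first to the second block in each tissue, where 30.6% of all cortex genes and 29.3% of all hippocampus genes tested rose. Aif1 rose by 0.87 ± 0.11 in the cortex and 1.07 ± 0.09 in the hippocampus. Tmem119, P2ry12, Trem2 and Csf1r rose by 0.41 to 0.58, Cx3cr1 by 0.41 and 0.27, and Siglech by 0.27 and 0.37. Sall1 was the exception. It fell by 0.20 ± 0.04 in the hippocampus (adjusted p = 8.5e-05), where 38.9% of genes tested fell (31.3% in the cortex), and in the cortex its difference of 0.28 ± 0.13 did not pass the test (adjusted p = 0.056). The median over the 9 genes was 0.47 in the cortex and 0.45 in the hippocampus, against 0.00058 and -0.08 over all genes. The estimates of Tyrobp and Aif1 lay above the upper 95% bound of each of the other 7 members in both tissues.

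Other microglial genes followed the same blocks. Of 24 further microglial genes, 22 rose in the cortex and 20 in the hippocampus, among them P2ry13, a purine receptor (0.75 ± 0.07 and 0.75 ± 0.05). Of 18 genes linked to the disease-associated state of microglia, 15 and 12 rose, including the lysosomal proteases Ctsd (0.61 and 0.65) and Ctsl (0.49 and 0.60), whereas Csf2ra, a receptor chain for GM-CSF, fell by 0.82 ± 0.08 and 1.11 ± 0.07. Across all genes tested, 30.6% in the cortex and 29.3% in the hippocampus rose, and 31.3% and 38.9% fell. Of the markers of other cells, only those that rose are counted here. All 5 astrocyte markers rose in each tissue, as did 7 and 5 of 7 border macrophage markers, 4 and 5 of 5 oligodendrocyte markers, 4 and 4 of 6 tested monocyte and neutrophil markers, 3 of 3 red blood cell markers, 3 of 5 endothelial markers in each tissue, and 2 and 3 of 6 neuronal markers. Of 5 choroid plexus markers 2 rose in the cortex and 0 in the hippocampus (edgeR quasi-likelihood test), and of the lymphocyte markers tested (3 and 4) 0 rose. The summed level of the 5 astrocyte markers ranged from 677 to 1308 CPM in the first block and from 877 to 1673 CPM in the second in the cortex, and from 1157 to 1462 and 1393 to 1791 CPM in the hippocampus. Their part in the differences of the 9 genes was not tested.

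The mouse numbers give another split, which in part coincides with the blocks. They were put into 3 series, named A, B and C, each made of a lower and a higher run of numbers, and all SS + RSD and AA + RSD mice carry A numbers while all mice given RSD and minocycline carry B or C numbers. A numbers were all in the second block, C numbers all in the first and B numbers in both. Among mice without RSD or minocycline, all A mice and the B mice 9836 and 5844 were in the second block. The other B mice were in the first, so series and block are largely the same split there. In these mice, 7 of the 9 genes were lower in B than in A mice in the cortex, where 19.4% of genes tested were lower, and 6 in the hippocampus, where 23.8% were. Tyrobp fell by 0.87 ± 0.13 and 0.92 ± 0.15, and Csf1r by 0.33 ± 0.07 and 0.45 ± 0.08. With the share of reads outside genes as a term, 0 and 1 of the 9 were called, and the percentage of all genes called in that fit is not given here.

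In SS mice exposed to RSD, Csf1r was higher in the cortex. Its level ranged from 88.3 to 116 CPM in the 8 SS mice (median 98.9) and from 112 to 153 CPM in the 6 SS + RSD mice (median 120). Of the SS + RSD mice 4 were above every SS mouse, and the groups overlapped. The mean rose from 101 ± 9.28 (SD) to 124 ± 14.6 CPM, a ratio of 1.23. In the fit with TMM scaling, Csf1r differed by 0.41 ± 0.12 on the log2 scale (SE, edgeR quasi-likelihood test, adjusted p = 0.049). It was the single member called, where 0.281% of genes tested were higher. Tmem119 ranged from 17.9 to 26.3 CPM in SS and from 25.3 to 30.6 CPM in SS + RSD mice (0.52 ± 0.16, adjusted p = 0.063), again with 4 of 6 above all SS mice. Cx3cr1 ranged from 41.9 to 61.6 and from 48.9 to 77.9 CPM (0.29 ± 0.13, adjusted p = 0.14).

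The other members did not pass the test in this comparison. The log2 differences were 0.72 ± 0.30 for Tyrobp, 0.55 ± 0.30 for Aif1, 0.46 ± 0.19 for P2ry12, 0.36 ± 0.20 for Trem2, 0.16 ± 0.16 for Siglech and 0.08 ± 0.31 for Sall1, whose mean CPM was lower in SS + RSD mice (ratio 0.973). Over the 9 genes the median was 0.41, compared to 0.08 over all genes, and 5 had an unadjusted p under 0.05, where 27.7% of genes tested had one. Leaving out any 1 of the 6 SS + RSD mice left 0 of the 9 called, with 0 at an adjusted p under 0.05 also by RLE scaling or without a filter on low counts. DESeq2 called 2 as higher, where 2.74% of genes were, and a model of only these groups called 3, where 7.17% were. Without the libraries of mice 5844, 5853, 7078 and 9631, 0 were called, and without the cortex libraries of mice 7076 and 9851, 2 were. For fits that leave out mice, the percentage of all genes called is not given here.

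The 2 SS mice of the second block had Csf1r levels of 113 and 116 CPM, inside the range of the SS + RSD mice. The 6 of the first block ranged from 88.3 to 102 CPM. With the label block as a term, the difference of Csf1r in the cortex was 0.14 (95% interval -0.05 to 0.33), that of Tmem119 0.11 (-0.12 to 0.35) and that of Cx3cr1 0.03 (-0.20 to 0.26), and 0 of the 9 were called by edgeR, with 0 at an unadjusted p under 0.05, where 7% of genes tested had one. The 9 differences then ran from -0.19 to 0.14, with 5 above 0 compared to 9 without the term. Among mice of the second block only, Csf1r differed by 0.15 (-0.14 to 0.44), and 0 of the 9 had an unadjusted p under 0.05 in the cortex and 1, Cx3cr1, in the hippocampus, where 1.84% and 7.63% of genes had one. RSD and label block overlap in these mice except through the 2 SS mice of the second block.

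**Figure D2:**
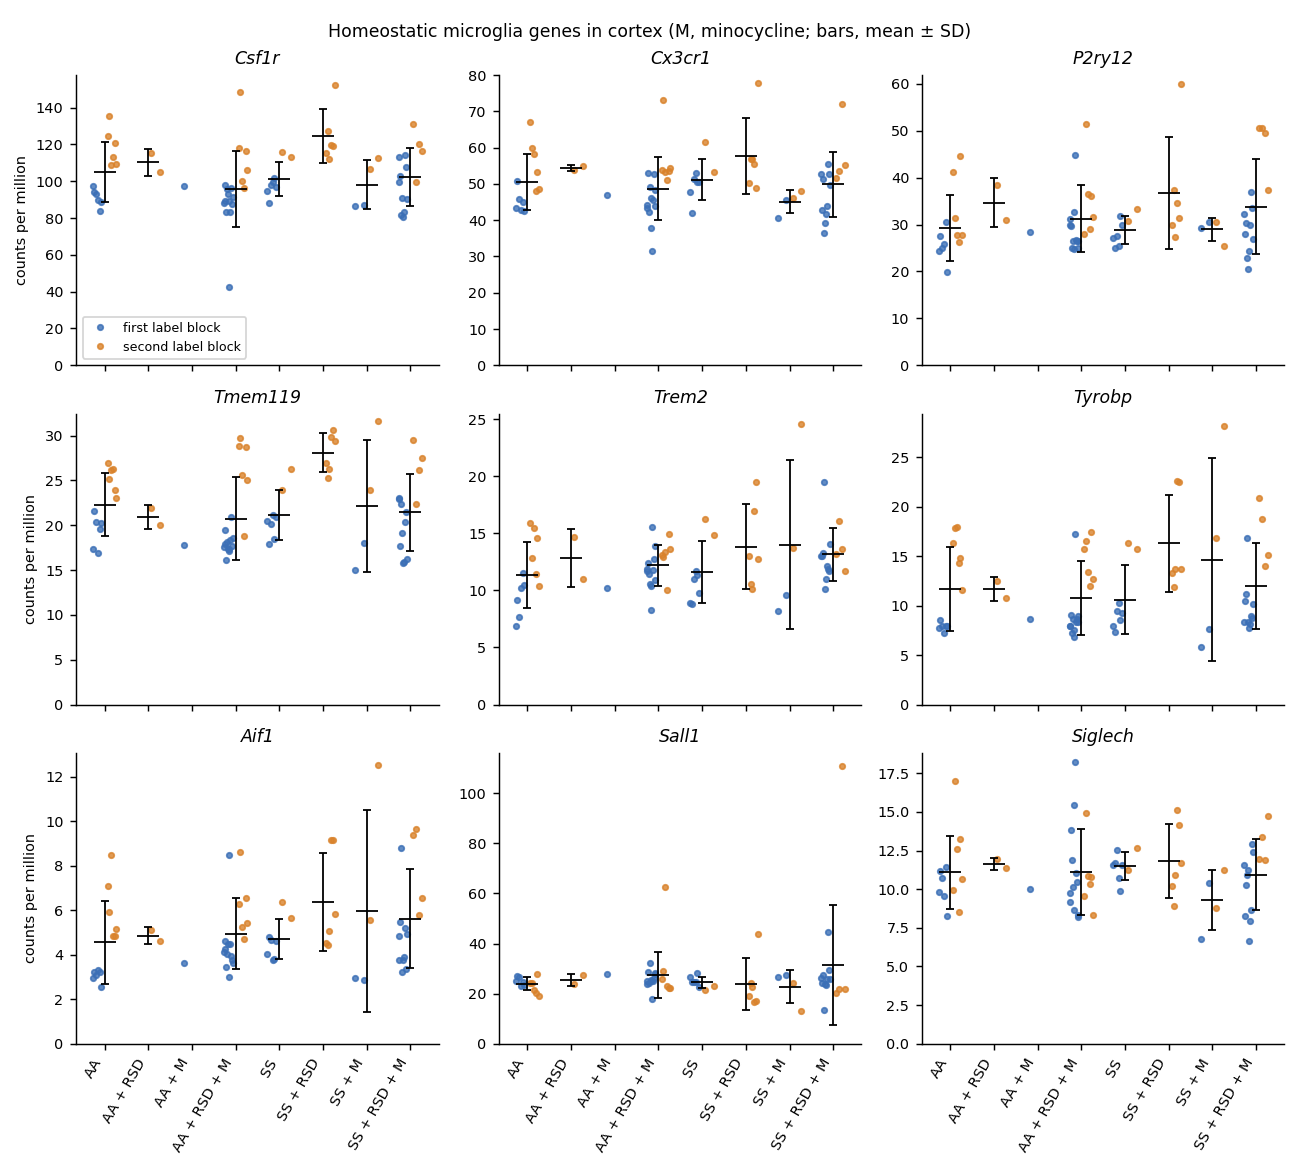
CPM of the 9 genes (1 panel each) in every cortex library used in the comparisons, by group, with M for minocycline. Points are mice coloured by label block and bars are mean ± SD; all SS + RSD points are of the second block, and Csf1r reaches 153 in an SS + RSD mouse.

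In the hippocampus, 0 of the 9 genes passed the test between SS + RSD and SS mice (edgeR), where 0.0966% of genes tested were higher. Of the 9, 3 had an unadjusted p under 0.05, where 19.6% of genes had one, and DESeq2 called 1 as higher, where 0.903% of genes were. A model of only these groups called 3, where 0.577% of genes were higher. Cx3cr1 ranged from 50.96 to 63.1 CPM in the 7 SS mice (median 57.6) and from 63.4 to 77.9 CPM in the 6 SS + RSD mice (median 64.9). All 6 SS + RSD mice were above all 7 SS mice, as was the case in this direction for 0.0435% of the genes tested. The 2 SS mice of the second block had 58.2 and 63.1 CPM, also below each SS + RSD mouse, as 2.86% of genes tested did within that block. The log2 difference of Cx3cr1 was 0.34 ± 0.11 (adjusted p = 0.076), 0.09 (95% interval -0.08 to 0.26) with the block as a term, and 0.19 (0.0015 to 0.39, adjusted p = 0.63) within the second block.

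Csf1r in the hippocampus ranged from 97.2 to 146 CPM in SS and from 133 to 175 CPM in SS + RSD mice (0.39 ± 0.15, adjusted p = 0.12). The 2 SS mice of the second block had 135 and 146 CPM, among the SS + RSD values, and with the block as a term the difference was 0.05 (-0.15 to 0.24). Tmem119 differed by 0.44 ± 0.20 (adjusted p = 0.20) and by -0.01 (-0.29 to 0.28) with the block as a term. Siglech and Sall1 had differences of 0.02 ± 0.20 and -0.0026 ± 0.09, whereas their mean CPM was lower in SS + RSD mice (ratios 0.943 and 0.931). The median over the 9 genes was 0.34 and that over all genes 0.06. With the block as a term the 9 differences ran from -0.34 to 0.09, with 3 above 0 compared to 8 without it, and 0 had an unadjusted p under 0.05, where 15.3% of genes had one.

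**Figure D3:**
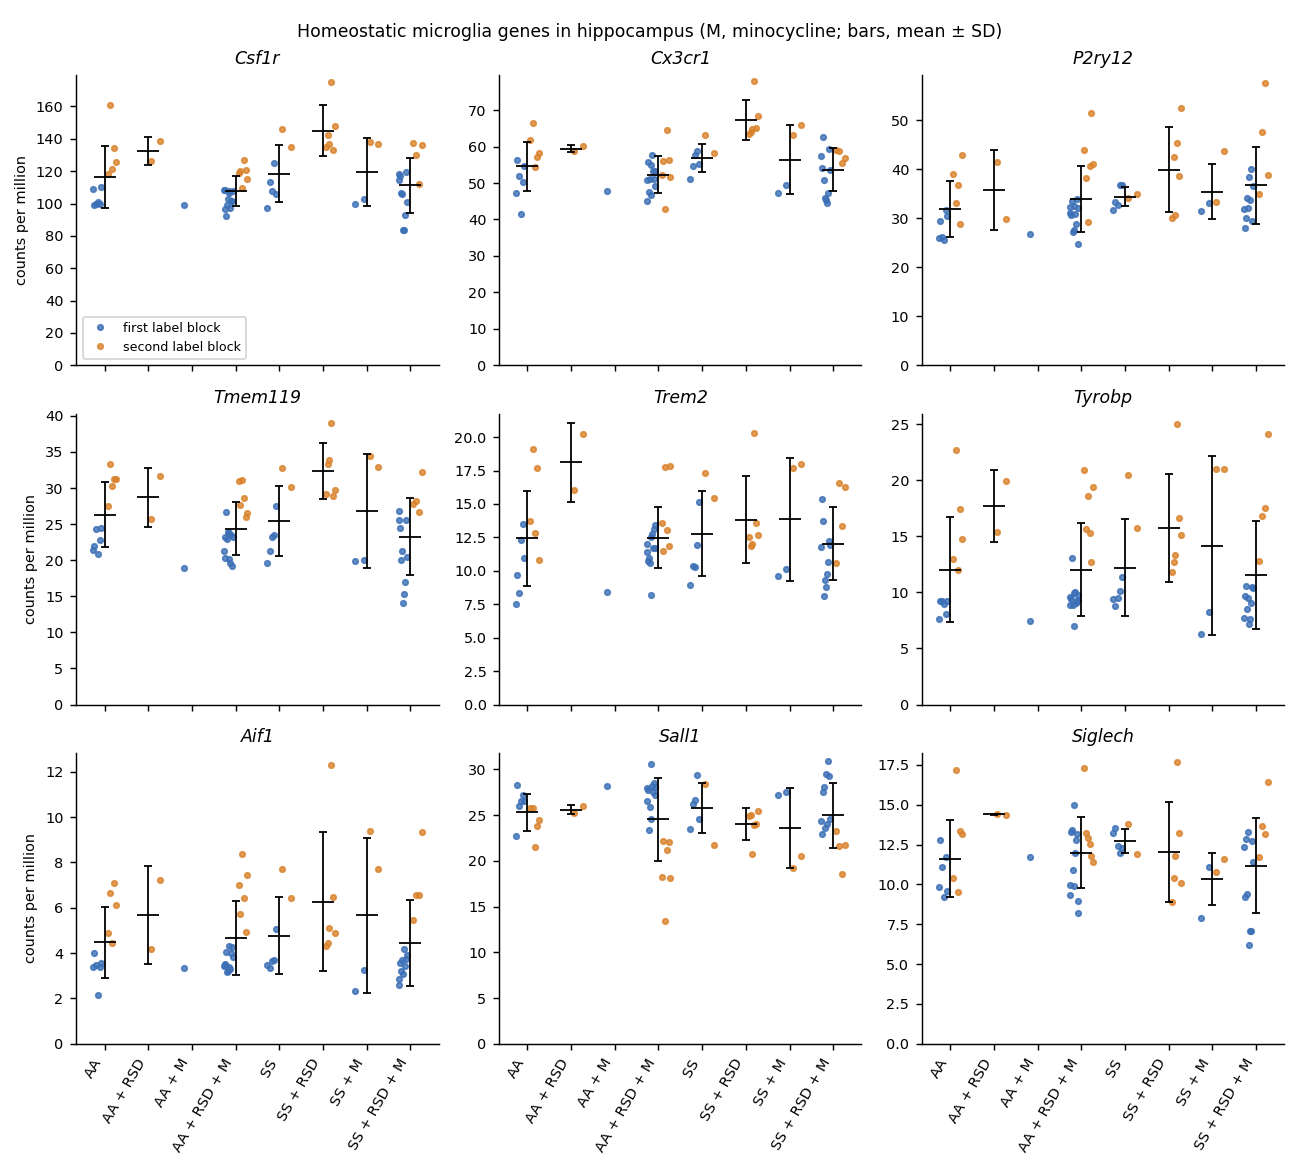
CPM of the 9 genes (1 panel each) in every hippocampus library used in the comparisons, by group, with M for minocycline. Points are mice coloured by label block and bars are mean ± SD; the 6 SS + RSD mice lie between 63.4 and 77.9 for Cx3cr1, above the 7 SS mice and the 14 SS + RSD + minocycline mice.

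Minocycline was given together with RSD to ask whether it counters the response to stress. In the cortex, Csf1r and Tmem119 were lower in SS + RSD + minocycline than in SS + RSD mice, where 2.47% of genes tested were lower. Csf1r ranged from 80.6 to 131 CPM in the 14 treated mice (median 101), and 9 of them were below all 6 SS + RSD mice. It fell by 0.40 ± 0.10 on the log2 scale (edgeR, adjusted p = 0.019). Tmem119 ranged from 15.8 to 29.5 CPM (median 21.9), with 11 of 14 below all SS + RSD mice, and fell by 0.50 ± 0.14 (adjusted p = 0.028). Cx3cr1 differed by -0.33 ± 0.11 (adjusted p = 0.061) and Tyrobp by -0.55 ± 0.27 (adjusted p = 0.19). Sall1 differed by 0.28 ± 0.28, the single positive value. Of the 9, 4 had an unadjusted p under 0.05, where 26.4% of genes had one. Without 1 SS + RSD mouse, 2 were called when it was mouse 5400, 1 when it was 5354, 9616 or 9621, and 0 when it was 5391 or 9615. The percentage of all genes called in those fits is not given here, so these counts have no background beside them.

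In the hippocampus, Cx3cr1 and Csf1r were lower in SS + RSD + minocycline than in SS + RSD mice, where 1.08% of genes tested were lower. Cx3cr1 ranged from 44.4 to 62.6 CPM in the 14 treated mice (median 54.8) and fell by 0.38 ± 0.10 (adjusted p = 0.027). All 14 were below all 6 SS + RSD mice, as was so for 0.0676% of genes tested. Csf1r ranged from 83.4 to 137 CPM (median 113), with 12 of 14 below all SS + RSD mice, and fell by 0.44 ± 0.13 (adjusted p = 0.039). Tmem119 differed by -0.53 ± 0.17 (adjusted p = 0.056), and 3 of the 9 had an unadjusted p under 0.05, where 26.8% of genes had one. Without 1 SS + RSD mouse, 2 were called when it was mouse 5400, 1 when it was 9621, and 0 when it was any of the other 4. Without the libraries of mice 5844, 5853, 7078 and 9631, 1 was called. These counts too have no percentage of all genes beside them.

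The block also ran through these groups. In the cortex, Csf1r had a mean of 96.5 ± 12.9 CPM in the 10 treated mice of the first block and 117 ± 12.96 in the 4 of the second. With the block as a term, Csf1r differed between treated and untreated SS + RSD mice by -0.14 (95% interval -0.31 to 0.03) in the cortex and -0.10 (-0.27 to 0.08) in the hippocampus, Tmem119 by -0.12 (-0.33 to 0.10) and -0.08 (-0.34 to 0.17), and Cx3cr1 by -0.09 (-0.30 to 0.12) and -0.14 (-0.30 to 0.01). Of the 9 genes, 0 were called in either tissue (edgeR), with 0 at an unadjusted p under 0.05, where 11.2% of cortex and 22.6% of hippocampus genes had one. The 9 differences ran from -0.14 to 0.49 in the cortex, with 6 above 0 compared to 1 without the term, and from -0.14 to 0.28 in the hippocampus, with 5 above 0 compared to 0. Without TMM scaling, the mean CPM of Sall1 in the hippocampus was higher in treated mice (ratio 1.04). Among mice of the second block only 0 were called, with 0 in the cortex and 1, Cx3cr1, in the hippocampus at an unadjusted p under 0.05, where 10.8% and 16.3% of genes had one. The 4 treated mice of the second block had hippocampal Cx3cr1 levels of 55.5 to 58.98 CPM, below all 6 SS + RSD mice, as 1.34% of genes tested were within that block. Their difference was -0.18 (-0.33 to -0.03, adjusted p = 0.25). In SS + minocycline mice, which had no RSD, Cx3cr1 was 47.1 and 49.5 CPM in the first block and 63.1 and 65.98 in the second. These comparisons share the SS + RSD mice with those against SS mice.

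**Figure D4:**
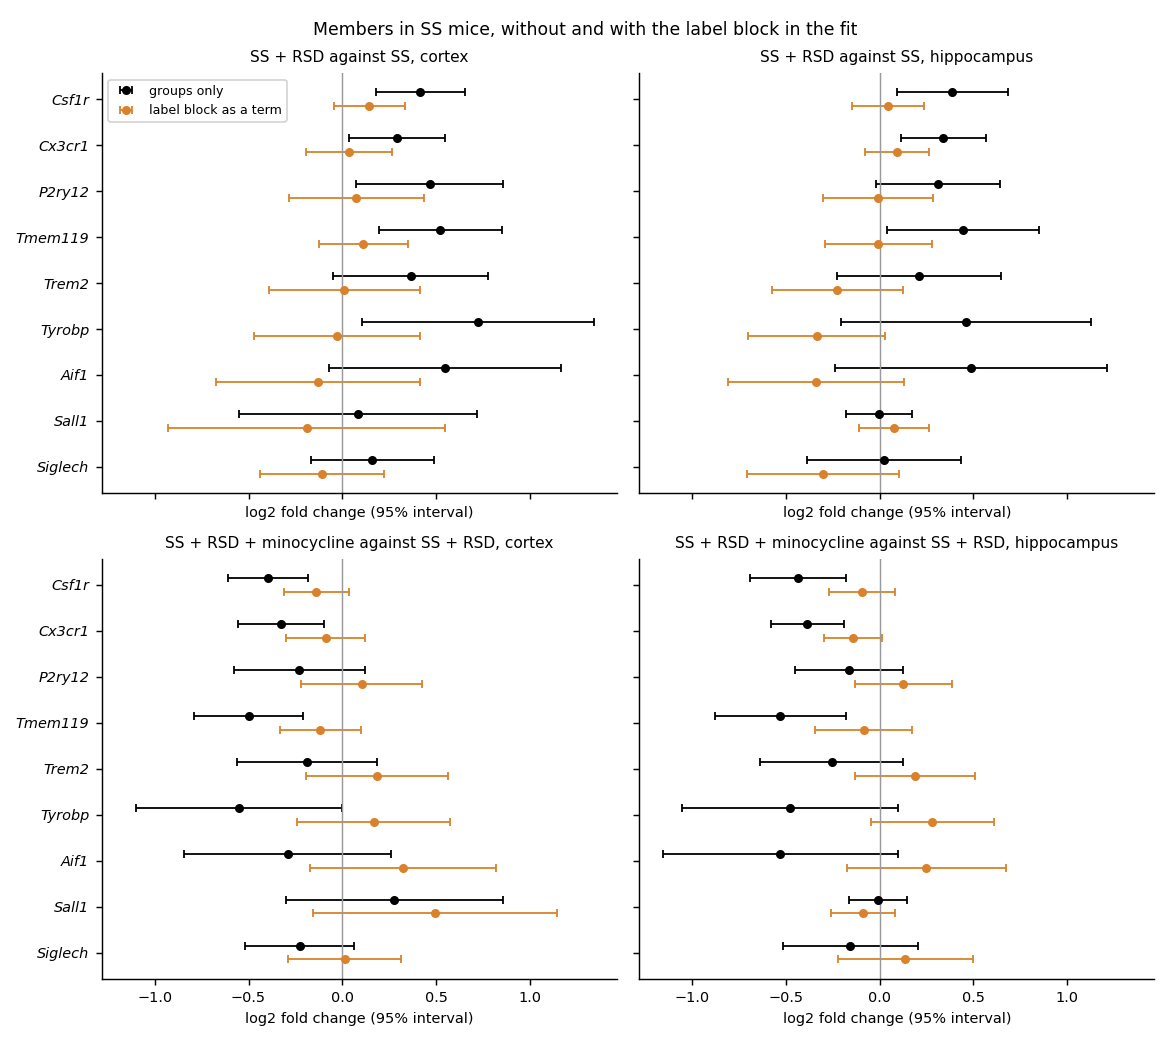
Log2 difference with its 95% interval for each of the 9 genes between SS + RSD and SS mice and between SS + RSD + minocycline and SS + RSD mice, in cortex and hippocampus, without and with the label block as a term. With the block as a term the values of Csf1r move from 0.41 to 0.14 (cortex, SS + RSD against SS) and from -0.40 to -0.14 (cortex, SS + RSD + minocycline against SS + RSD).

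The ligands of these receptors are made mainly by other cells. Cx3cl1, the neuronal ligand of CX3CR1, was lower in the cortex of SS + RSD + minocycline than of SS + RSD mice, by 0.48 ± 0.08 (adjusted p = 0.0050), and with the block as a term by 0.39 (adjusted p = 0.22). In the hippocampus its difference was -0.17 ± 0.07 (adjusted p = 0.14). The differences of Il34 were -0.20 ± 0.08 and -0.25 ± 0.11, and those of Csf1 0.09 ± 0.08 and 0.01 ± 0.09, none of which passed the test. Spi1 differed by -0.47 ± 0.19 and -0.40 ± 0.22. Between SS + RSD and SS mice, 0 of the 12 ligands and myeloid regulators on the list were called in either tissue (edgeR), with values for Csf1, Il34, Cx3cl1 and Spi1 of -0.05, 0.15, 0.17 and 0.39 in the cortex, and in the hippocampus of -0.08, 0.06, 0.20 and 0.26. Tgfbr2, a receptor chain for TGF-beta, which maintains the homeostatic state of microglia, was lower in the hippocampus of SS + RSD + minocycline mice by 0.40 ± 0.10 (adjusted p = 0.029).

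Among all genes tested, 2.47% (cortex) and 1.08% (hippocampus) were lower in SS + RSD + minocycline than in SS + RSD mice. That is the background for each gene given as lower in this comparison below. Of the 24 further microglial genes, 4 were lower in cortex and 1 in hippocampus. Those were Entpd1, which breaks down extracellular ATP (-0.53 ± 0.13 and -0.35 ± 0.09), and in the cortex also Fcgr3, Laptm5 and Olfml3 (-0.69, -0.41 and -0.48). Of 11 genes of TREM2-TYROBP signalling, Pik3ap1 was lower in the hippocampus (-0.51 ± 0.15). Of 17 tested genes of the disease-associated state, Axl was lower in the hippocampus (-0.22 ± 0.06), and Csf2ra was higher in both tissues (0.90 ± 0.21 and 0.82 ± 0.24), where 6.38% and 4.88% of genes tested were higher. Csf2ra was lower in SS + RSD than in SS mice (-0.96 ± 0.23 and -1.04 ± 0.27), where 2.29% and 3.01% of genes were lower, and was the single gene of these 3 lists called there. With the block as a term, 0 genes of any list were called in either comparison and tissue (edgeR).

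Single markers of other cells moved in the same comparison, where 2.47% of cortex and 1.08% of hippocampus genes tested were lower. Only markers that passed the test are named, and the others of each list are not given one by one. Lower in SS + RSD + minocycline than in SS + RSD mice were the astrocyte markers Aldh1l1 (-0.46 in the cortex, -0.40 in the hippocampus) and Gja1 (-0.40 in the cortex), the endothelial marker Pecam1 (-0.63 and -0.51), and in 1 tissue each the border macrophage marker F13a1 (-1.07, hippocampus), the choroid plexus marker Kl (-1.34, hippocampus) and the red blood cell marker Slc4a1 (-1.11, cortex). In the hippocampus, the summed choroid plexus markers had a median of 39.7 CPM (35.1 to 9180) in SS + RSD mice. In SS + RSD + minocycline mice the median was 37.4 CPM (22.1 to 2211). Between SS + RSD and SS mice, 0 markers of other cells were called (edgeR). The summed astrocyte markers in the cortex ranged from 843 to 1114 CPM in SS, 1091 to 1643 in SS + RSD and 677 to 1673 CPM in SS + RSD + minocycline mice. The summed border macrophage markers in the cortex ranged from 5.28 to 14.2, 10.1 to 20.6 and 4.59 to 16.8 CPM, and the summed monocyte and neutrophil markers from 0.517 to 7.18, 1.17 to 4.46 and 0.371 to 6.31 CPM. In that list the neutrophil marker Ly6g had a median of 0 CPM in both tissues and Chil3 one of 0.0206 CPM in the cortex and 0 in the hippocampus. The 24 further microglial genes summed to 382 to 541, 476 to 687 and 386 to 715 CPM in the same groups. The part of other cells in the differences of the 9 genes was not tested.

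In the other comparisons, 0 of the 9 genes passed the test in either tissue by edgeR, with 0 at an unadjusted p under 0.05 and 0 by DESeq2. Between SS and AA mice the log2 differences ran from -0.22 to -0.03 in the cortex and from -0.07 to 0.10 in the hippocampus, where 0.206% and 0.158% of genes tested were called. Among those called were the red blood cell genes Alas2 (2.84 ± 0.52 and 3.33 ± 0.55), Slc4a1 and Hba-x. Csf1r had means of 105 ± 16.4 CPM in AA and 101 ± 9.28 in SS cortex, and 116 ± 18.97 and 118 ± 17.4 in the hippocampus. Its difference was -0.14 (95% interval -0.39 to 0.12) in the cortex, and over the 9 genes the intervals reached from -0.73 to 0.46 in the cortex and from -0.54 to 0.63 in the hippocampus. Of the AA mice, 6 were in each block for the cortex, and for the hippocampus 6 were in the first and 5 in the second. Adding the block as a term put 7 of the 9 differences in the cortex above 0 (-0.01 to 0.25), compared to 0 without it, and within the first block 9 of 9 were (0.000082 to 0.47). In the hippocampus 8 were above 0 (-0.03 to 0.24), compared to 7.

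Genotype was also compared in mice given RSD and minocycline, the largest groups (14 SS and 18 AA). The differences ran from -0.06 to 0.15 in the cortex and from -0.10 to 0.11 in the hippocampus, where 0.599% and 2.73% of genes tested were called. Csf1r differed by 0.05 (95% interval -0.15 to 0.25) and 0.04 (-0.13 to 0.20), and the intervals of the 9 genes reached from -0.29 to 0.52 and from -0.49 to 0.35. Between SS + RSD and AA + RSD mice, with 2 AA + RSD mice, differences ran from -0.10 to 0.48 and from -0.32 to 0.24, where 0% and 0.0171% of genes were called. The interaction of genotype with RSD and minocycline ran from -0.03 to 0.32 and from -0.21 to 0.04, with 0% of genes called in both tissues. When the block was a term, the interaction ran from -0.11 to 0.12, with 6 of 9 above 0 compared to 8, and from -0.29 to 0.05, with 1 above 0 compared to 3.

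Minocycline in SS mice without RSD (4 mice) gave differences of -0.23 to 0.53 in the cortex and -0.22 to 0.34 in the hippocampus compared to SS mice. Those groups spanned both blocks, and Tyrobp in the cortex of SS + minocycline mice was 5.77 and 7.66 CPM in the first block and 16.9 and 28.2 CPM in the second. SS + RSD + minocycline mice differed from SS mice by -0.07 to 0.36 and -0.13 to 0.15, and from SS + minocycline mice by -0.36 to 0.38 and -0.38 to 0.09. In all 3 comparisons 0% of genes tested were called in both tissues. After the block entered as a term, SS + minocycline against SS ran from -0.32 to 0.17 in the cortex, with 3 of 9 above 0 compared to 6, and hippocampus values from -0.33 to 0.02, with 2 above 0 compared to 7. SS + RSD + minocycline against SS + minocycline then ran from 0.02 to 0.38 in the cortex, with 9 above 0 compared to 4, and from -0.07 to 0.16 in the hippocampus, with 4 above 0 compared to 3. Against SS mice the count above 0 was 6 compared to 7 in the cortex and 1 in both fits in the hippocampus.

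In AA mice the 2 AA + RSD mice differed from AA mice by -0.09 to 0.24 in the cortex and 0.000061 to 0.52 in the hippocampus, where 0% and 0.0419% of genes were called. Their Csf1r levels were 105 and 115 CPM in the cortex and 126 and 139 CPM in the hippocampus, inside the AA ranges of 83.6 to 135 and 99.4 to 161 CPM. AA + RSD + minocycline mice differed from AA + RSD mice by -0.24 to 0.06 and -0.51 to -0.04, where 0% and 0.0419% of genes were called, and from AA mice by -0.16 to 0.17 and -0.10 to 0.10, where 0.0503% and 0% were. Here too the direction depended on the block. With it as a term, AA + RSD against AA ran from -0.38 to 0.05 in the cortex, with 3 of 9 above 0 compared to 7, and from -0.15 to 0.28 in the hippocampus, with 4 above 0 compared to 9. AA + RSD + minocycline against AA + RSD ran from 0.00014 to 0.50, with 9 above 0 compared to 1, and from -0.22 to 0.32, with 4 above 0 compared to 0. These comparisons share the 2 AA + RSD mice, both of the second block. RSD against no RSD was not tested for a difference between AA and SS mice beyond the comparisons named.

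The hippocampus was compared with the cortex in mice without RSD or minocycline (18 and 20 libraries). Tmem119 was higher in the hippocampus, at 25.97 ± 4.54 CPM compared to 21.8 ± 3.20 in the cortex. Its log2 difference in the fit was 0.22 ± 0.09 (edgeR, adjusted p = 0.031), where 23.3% of genes tested were higher. It was the single member called. With the mouse as a block, which takes out what both libraries of a mouse share, Tmem119 (0.22 ± 0.04), Csf1r (0.14 ± 0.03), Cx3cr1 (0.10 ± 0.03) and Siglech (0.09 ± 0.04, adjusted p = 0.046) were higher in the hippocampus, where 30.4% of genes tested were higher in that fit. The other 5 differed by 0.02 to 0.14 in that fit. Of the ligands, Csf1 was higher in the hippocampus (0.44 ± 0.05) and Il34 (-0.32 ± 0.05) and Cx3cl1 (-0.56 ± 0.04) lower.

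The variation of the 9 genes between mice of one group was examined within each block, because libraries cluster by block. Each value was centred on its group, and correlations are Pearson's r with Spearman's rho. Of 18 relations of a member with the mean of the other 8, 8 passed a permutation test (adjusted over the 18) in the first block and 15 in the second, all positive, and without the 2 libraries farthest from the median 5 and 10 did. In the hippocampus, Tyrobp followed the others with r = 0.59 (rho 0.66, adjusted p = 0.00096, 35 mice) in the first block and r = 0.79 (rho 0.66, adjusted p = 9e-05, 27 mice) in the second. Without the 2 farthest libraries r was 0.53 and 0.63.

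Sall1 did not pass against the mean of the others in either tissue or block, with r from -0.03 to 0.13. With single members its r differed in sign. With Cx3cr1 it was 0.73 and 0.57 in the cortex (first and second block) and 0.27 and 0.73 in the hippocampus, and with Tyrobp -0.53 and -0.42 in the cortex, where hippocampus libraries gave 0.02 and -0.10. These pairs are a description over 36 and 28 cortex and 35 and 27 hippocampus libraries, in which both genes share the library and its depth. Their r without the farthest libraries was not computed. SS + RSD mouse 9621, of the second block, was the highest of its group in the cortex for both Sall1 (43.95 CPM) and Cx3cr1 (77.9 CPM). P2ry12 did not pass in the hippocampus (r = -0.16 and -0.01). Sall1 also stood apart by single high cortex libraries. They were 111 CPM in SS + RSD + minocycline mouse 9890, 62.7 in AA + RSD + minocycline mouse 5648, 44.8 in SS + RSD + minocycline mouse 9813 and 43.95 in SS + RSD mouse 9621, against a median of 25.4 CPM in the first block and 22.8 in the second. The hippocampus libraries of these mice had 18.6, 13.4, 30.9 and 25.4 CPM. In the cortex, the genes closest to Sall1 over 64 libraries included Sall3 (r = 0.94), Map3k1 (0.91) and Tshz1 (0.90), none of them on a microglial list, and this search was made after the values of Sall1 were seen.

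Mice differed in Siglech in a way that both tissues shared. Its levels in cortex and hippocampus of the same mouse correlated with r = 0.80 (rho 0.85, permutation test, adjusted p = 9e-05, the smallest the permutations can give over 9 relations, 35 mice) in the first block and r = 0.67 (rho 0.66, adjusted p = 0.0014, 27 mice) in the second. Without the 2 farthest mice r was 0.85 and 0.66. In the first block Tmem119 (r = 0.49, rho 0.41) and Trem2 (r = 0.41, rho 0.49) also passed, whereas r of Tmem119 fell to 0.28 without the 2 farthest mice and that of Trem2 was 0.61. In the second block the other 8 genes did not pass, with r from -0.49 for Sall1 to 0.32 for Trem2.

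**Figure D5:**
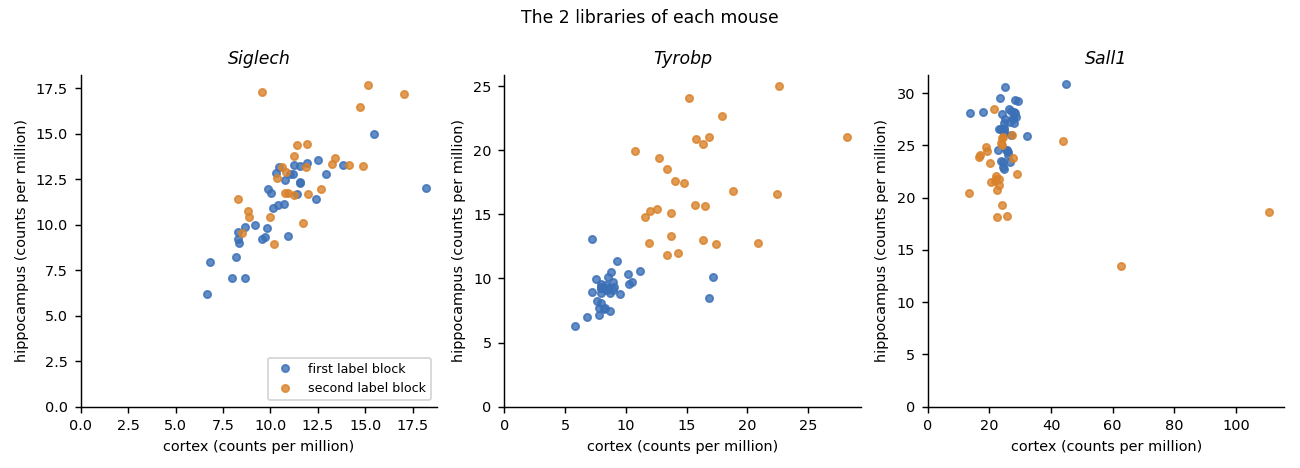
CPM in the hippocampus (vertical axis) against the cortex (horizontal axis) of the same mouse for Siglech, Tyrobp and Sall1, 1 point per mouse coloured by label block. Siglech rises in both tissues together within each block (r = 0.80 and 0.67), Tyrobp separates by block, and Sall1 shows cortex values of 62.7 and 111 with low hippocampus values.

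Over 16266 cortex genes, those whose group-centred levels were most like the mean of the 9 included P2ry13 (r = 0.90 over 64 libraries), C1qc (0.87), Ifngr1 (0.87), C1qb (0.86), Ptn (0.86), C1qa (0.85), Ctss (0.85), Rsu1 (0.85) and Pdpn (0.85). In the hippocampus, over 62 libraries, they were C1qa (0.90), C1qc (0.90), C1qb (0.90), Fcgr3 (0.89), P2ry13 (0.89), Itgb2 (0.87), Dbi (0.87), Rgs10 (0.86), Rac2 (0.85) and Gfap (0.85). C1qa, C1qb and C1qc encode the chains of complement C1q, which microglia make in the brain, and Gfap marks astrocytes. With the block removed as well, C1qc had the highest value in the cortex (0.72) and Itgb2, an integrin chain of myeloid cells, in the hippocampus (0.81), and Gfap had 0.65. These values share libraries and depth and are given as a description.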

How the data were processed

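Polyadenylated RNA of cortex and hippocampus was sequenced from single ends in directional libraries. The authors aligned reads to GRCm39 with STAR and deposited, per tissue, raw counts per GENCODE gene. The STAR version, GENCODE release and strand setting are not given in the sources used here. Reads mapping to several places are not in these counts, and the 4 summary lines that name no gene stayed out of library sizes and tests (median percentages of reads, cortex and hippocampus: unmapped 12.5 and 13.4, outside genes 8.39 and 7.69, at several places 4.96 and 4.80, in more than one gene 1.25 and 1.21). Of 135 samples, 1 has no clear group, and 3 value columns were not used. In each tissue, 2 libraries of different groups held identical counts and were left out, as were the libraries labelled 9674, whose tissues looked exchanged. The red cell gene Alas2 went against the genotype label in the libraries labelled 5844, 5853 and 7078, those labelled 9631 held mouse beta-globin counts, and the cortex libraries of mice 7076 and 9851 stood apart from their groups. Comparisons were repeated without them. Replicates are mice, and their number and spread limit precision more than counting does.

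Counts were tested in R 4.3.3 with edgeR 4.0.16 (TMM, filterByExpr with a minimum count of 10 and a minimum total of 15, glmQLFit and glmQLFTest). A gene is called where its p, adjusted by Benjamini-Hochberg over all genes tested, is under 0.05. AA groups were compared in a model of AA mice, SS groups in one of SS mice, and genotypes in a model of both. All 9 genes passed the filter in each comparison. Intervals are 95% from the fit. Levels are CPM without TMM scaling, and correlations used log2(CPM + 0.5) with 100000 permutations, two-sided. Cortex and hippocampus libraries with the same mouse number are of the same mouse, whereas the label numbers that set the blocks can differ between the tissues of a mouse. Over 62 mice, deviations of both libraries from the mean of their group and label block had a median correlation of 0.379. The correlation was above 0.1 in 55 mice. The alternatives were RLE size factors, DESeq2 1.42.0, no filter, models restricted to the compared groups, the share of reads outside genes or the number series as a term, single number series, leaving out mice, and the mouse as a block. The label block as a term, single blocks and leaving out mice 7076 and 9851 were added after seeing the data. The edgeR steps were checked on simulated counts modelled on the SS cortex libraries, for SS + RSD against SS. The DESeq2 steps were not checked in this way.

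The members, the gene lists and the tests were chosen with earlier results of these data known. Named genes were the 9 members, Csf1, Il34, Cx3cl1 and Spi1, up to 4 called genes per list and comparison by adjusted p, and the 10 genes most like the mean of the members, of which some are not reported here. Lists were further microglial genes, disease-associated microglia genes, TREM2-TYROBP signalling, ligands and regulators, and markers of other cells. Positions are from GENCODE vM39.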

Additional observations from a re-analysis of the deposited data

Results flagged for a closer look

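Single mice stood far from the rest of their group in 11 of 54 sets of 4 to 10 libraries tested, where chance gives about 1 in 20. In the cortex, SS + RSD mouse 9621 was the highest of 6 for Csf1r (152.5 CPM), Cx3cr1 (77.9 CPM), P2ry12 (60 CPM) and Sall1 (43.95 CPM). In the hippocampus, SS + RSD mouse 9615 was the highest of 6 for Csf1r (175.2 CPM), Cx3cr1 (77.9 CPM), Tyrobp (25.0 CPM), Trem2 (20.3 CPM) and Aif1 (12.3 CPM). SS + RSD mouse 5400 was the lowest for Sall1 in the hippocampus (20.7 CPM), and SS + minocycline mouse 9889 the highest of 4 for P2ry12 there (43.8 CPM). The 9 flags of mice 9621 and 9615 share 2 libraries. The genes called in the report without either mouse are given there.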

How the results depend on the processing

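Across alternatives, 324 counts of called members or relations stayed within 1.5 times and 55 did not. The percentage of all genes called is given in the report for some of these fits only. The other counts cannot be set against all genes. For SS + RSD against SS in the cortex (1 called), RLE size factors, no filter, the share of reads outside genes, the number series or the label block as a term, series A only, the second block only and leaving out mice 5844, 5853, 7078 and 9631 gave 0, DESeq2 and leaving out the cortex of 7076 and 9851 gave 2, only the groups compared gave 3, and leaving out 1 SS + RSD mouse gave 0 each time. In the hippocampus (0 called), DESeq2 gave 1 and only the groups compared 3. For SS + RSD + minocycline against SS + RSD (2 called in each tissue), no filter gave 1 in each, the share, the number series, the block as a term and the second block only gave 0, leaving out 1 SS + RSD mouse gave 0 to 2, and leaving out the 4 mice gave 1 in the hippocampus. Within series B, SS + minocycline against SS gave 4 in the cortex and SS + RSD + minocycline against SS + minocycline 2, both from 0. There both SS + minocycline mice were in the second block and all 6 SS mice in the first, so minocycline and block cannot be told apart. For series B against A, the share as a term gave 0 (cortex) and 1 (hippocampus). Hippocampus against cortex gave 4 with the mouse as a replicate block, with all mice or in the first block, from 1.
With the number series as a term, SS + RSD + minocycline against SS + RSD reversed for Csf1r (0.016 cortex, 0.084 hippocampus), Tmem119 (0.016, 0.11) and Cx3cr1 (0.063, cortex). With the block as a term, Tmem119 for SS + RSD against SS in the hippocampus was -0.0069. With the share as a term, series B against A reversed for P2ry12 (0.060 and 0.12) and Sall1 (-0.14 and -0.0074), and in hippocampus against cortex Aif1 was 0.018 with the replicate block and Sall1 -0.094 with all mice. Over the other 6 members, 10 of 108 and 25 of 102 values (SS + RSD against SS, cortex and hippocampus) and 16 of 102 and 21 of 96 (SS + RSD + minocycline against SS + RSD) lay in the other direction. Relations past the threshold over all libraries and within series A, series B, the first and the second block numbered 17, 8, 16, 8 and 15 of 18 (member with the other members), 8, 3, 9, 3 and 1 of 9 (cortex with hippocampus) and 16, 0, 16, 1 and 0 of 18 (member with the share of reads outside genes). Series B spans both blocks. The number series and the block as terms leave few mice to tell RSD from series or block. The cause of these changes was not tested.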
